A study of Mus musculus with 6 samples.

Results

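The genes described here are 7 that control phosphate and pyrophosphate during mineralization: the phosphatase genes Alpl and Phospho1, the sphingomyelinase gene Smpd3, the pyrophosphate genes Enpp1 and Ank, and the phosphate transporter genes Slc20a1 and Slc20a2. They were taken by name, and all 7 were found among the 24346 names of each table and had a mean of at least 1 FPKM (fragment counts normalised for transcript length and library size). The RNA came from whole newborn mouse calvaria, the roof of the skull, with the interparietal and occipital bone and without the ear cartilages. The 3 control libraries (Flox_control, genotype Pth1rfl/fl) carried floxed alleles of Pth1r, the receptor gene for parathyroid hormone and its related protein, and the 3 libraries labelled Mutant (Prx1-Cre;Pth1rfl/fl) carried the same alleles with the Prx1-Cre transgene. Prx1-Cre is known to act in limb and skull mesenchyme, and whole calvaria also holds blood-derived cells such as osteoclasts, which do not arise from that mesenchyme. The series asks how this receptor bears on calvarial cartilage and the sutures.

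Mineral forms when phosphate and calcium crystallize in the matrix laid down by osteoblasts and by hypertrophic chondrocytes, and inorganic pyrophosphate blocks that step. Tissue-nonspecific alkaline phosphatase, the product of Alpl, cleaves pyrophosphate and releases phosphate outside the cell, while PHOSPHO1 releases phosphate from phosphocholine inside matrix vesicles. ENPP1 makes pyrophosphate from extracellular ATP, ANK moves pyrophosphate and ATP out of the cell, and the sodium-dependent carriers encoded by Slc20a1 and Slc20a2 take phosphate into it.

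Several facts of the libraries bear on what follows. Pth1r itself was not lower under the mutant label, at 89.2, 93.3 and 102 FPKM in controls, against 127, 125 and 142 FPKM under the mutant label, so each direction below is that of the label. These values are for the whole gene, and the labels do not say which exons are floxed. They therefore cannot show whether exons were removed. All 7 osteoclast marker genes passed as higher (limma, adjusted p under 0.05), against 0.524% of all tested genes. Their summed level ran from 584 to 657 FPKM in controls and between 1604 and 1750 FPKM under the mutant label. The summed level of 7 cartilage matrix genes ran from 614 to 1370 FPKM in controls and between 277 and 380 FPKM under the mutant label, a sum in which Col2a1 was the largest term in each library. Of these 7 genes Matn1 passed, as lower (limma, adjusted p = 0.0205), and Comp alone had a higher mean under the mutant label, at a ratio of 1.23. In 5 of the 7, every library labelled mutant lay below every control, against 6.79% of all tested genes. The 3 markers of hypertrophic chondrocytes lay above every control in each library labelled mutant, as did 9.34% of all tested genes. The ratios were 2.497 for Col10a1, 2.61 for Mmp13 and 1.21 for Ihh. Mmp13 passed (limma, adjusted p = 0.00415), while Col10a1 and Ihh did not (adjusted p = 0.109 and 0.545). The part of these cells in the members' values was not tested. The defining osteoblast genes were abundant in every library, with Col1a1 between 9427 and 13131 FPKM. Control 2 alone held 56.6 FPKM of the inner ear gene Oc90. No source used here gives read totals. Relative depth, read from single-fragment steps, ran from 0.703 to 0.972 of that of control 1 in the other 5 libraries. The labels number the samples without saying whether they are separate animals, so p-values measure the spread between these samples only.

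None of the 7 genes passed the test between groups, which was limma on log2(FPKM + 1) with Benjamini-Hochberg adjustment over 13180 genes at 0.05. Of all tested genes 0.607% passed. At an unadjusted p under 0.05 there was 1 member of 7, Alpl, against 10.5% of all tested genes. Alpl was also the 1 member whose groups did not overlap, against 16.1% of all tested genes, so neither count stood far from its background. The other 6 members had overlapping groups and group means within 11.1% of each other. The median log2 difference was 0.04 over the 7 members and 0.0015 over all tested genes. With 3 libraries against 3, an exact permutation test cannot give a p below 0.1, which is the value it gave for Alpl (two-sided), and it gave 0.5 to 0.8 for the other 6. Their adjusted p ran from 0.79 to 0.927 (limma, Benjamini-Hochberg).

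**Figure D1:**
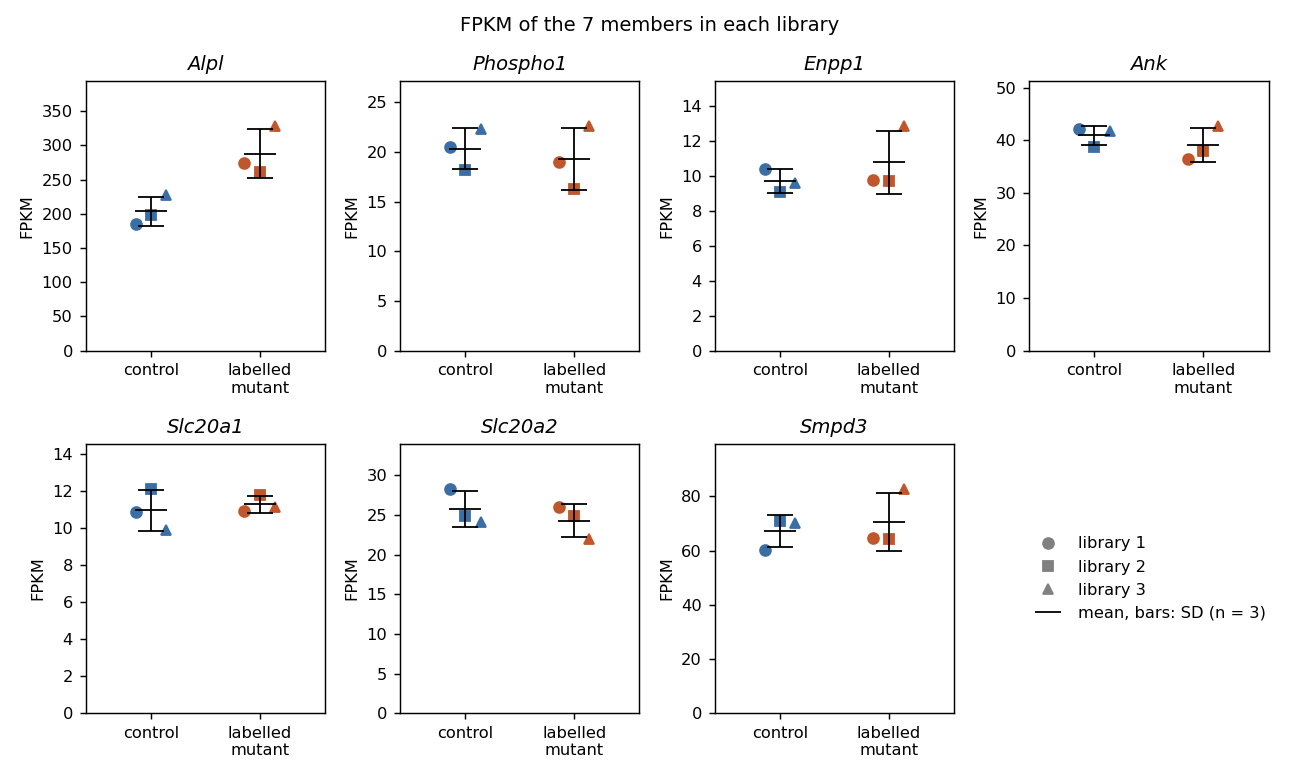
FPKM of each of the 7 genes (vertical axes from 0) in the 3 control libraries and the 3 libraries labelled mutant, with 1 point per library, a marker shape per library number, and the mean with SD (n = 3). In Alpl the groups do not overlap (186 to 227 FPKM against 261 to 328 FPKM), and in the other 6 genes they do.

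Alpl had the highest level of the 7 genes and the largest difference between groups. It encodes the enzyme whose activity is the standard mark of bone-forming cells and whose loss causes hypophosphatasia. The control libraries held 186, 199 and 227 FPKM and the libraries labelled mutant 275, 261 and 328 FPKM. Every library labelled mutant lay above every control, and the lowest of them, library 2, lay 1.15-fold above control 3. The means were 204 ± 21.1 (SD, n = 3) and 288 ± 35.7 FPKM (SD, n = 3), a ratio of 1.41. On the log2 scale the difference was 0.49 ± 0.11 (SE), with a 95% interval from 0.23 to 0.76 (limma, Benjamini-Hochberg adjusted p = 0.15). Differences at least as far from 0 were found in 3.12% of tested genes. In bulk tissue, more cells that express a gene and more RNA of it per cell cannot be told apart.

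Alpl lies on the minus strand of chromosome 4, at positions 137741733 to 137796384 of GRCm38 (mm10), and no other annotated gene overlaps it in GENCODE M21. It is known to have alternative first exons, of which the upstream one is used in bone. The 2 promoter windows that RefSeq lists for it are shown because the deposited value is for the whole gene and does not say which start the difference comes from. Each window runs from 250 bases before a start to 50 bases from it on (GRCm38.p6, minus strand), and the second start lies 29909 bases downstream of the first, inside the gene and at an annotated exon. Capitals mark exact matches on either strand to the GC box GGGCGG, the TATA box TATAAA or the Runx core TGTGGT.
Alpl upstream start, chr4:137796335-137796634: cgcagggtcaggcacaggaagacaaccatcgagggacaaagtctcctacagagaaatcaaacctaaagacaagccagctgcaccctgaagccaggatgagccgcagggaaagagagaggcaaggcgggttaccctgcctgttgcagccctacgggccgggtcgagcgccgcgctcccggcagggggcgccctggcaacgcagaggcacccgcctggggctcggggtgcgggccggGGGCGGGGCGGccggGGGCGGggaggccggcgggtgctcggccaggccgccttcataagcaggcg
Alpl downstream start, chr4:137766426-137766725: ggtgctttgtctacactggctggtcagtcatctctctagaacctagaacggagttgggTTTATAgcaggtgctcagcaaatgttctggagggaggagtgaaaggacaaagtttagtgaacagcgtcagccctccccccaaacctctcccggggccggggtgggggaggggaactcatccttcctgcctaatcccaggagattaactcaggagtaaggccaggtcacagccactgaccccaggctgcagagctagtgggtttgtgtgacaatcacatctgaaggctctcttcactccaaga
The upstream window held 3 GC boxes, a pair of them overlapping, and its GC content was 70.0%. The downstream window held 1 match to the TATA box letters, on the opposite strand and 192 bases before the start, and its GC content was 54.3%. Of 32851 RefSeq windows of this length, 35.7% held a GC box, 13.6% the TATA letters and 16.8% the Runx letters. Neither Alpl window held the Runx letters, which were found in the window of Enpp1 (144 bases before the start) and the upstream window of Slc20a1 (77 bases before it). GC boxes were found in the windows of Phospho1 (3 matches), Ank (2) and Enpp1 (1) and in both windows of Slc20a1 (2 and 1). These matches are letters in a window, not sites shown to be used.

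Phospho1, the other phosphatase gene, did not follow Alpl. It is made by hypertrophic chondrocytes and osteoblasts, where it starts mineral inside matrix vesicles. Its levels were 20.5, 18.2 and 22.3 FPKM in controls, against 18.9, 16.3 and 22.6 FPKM under the mutant label. The lowest and the highest of the 6 values both belonged to the mutant label. The means were 20.3 ± 2.04 and 19.3 ± 3.17 FPKM (SD, n = 3 each), with a log2 difference of -0.08 and a 95% interval from -0.38 to 0.22 (limma). The gene spans 95824499 to 95832140 of chromosome 11 on the plus strand, and 89.6% of its exon bases are also exon bases of Zfp652 on the same strand and 84.2% of Abi3 on the opposite strand in GENCODE M21. No source used here says whether strand was used in the counting, and strand would not separate Phospho1 from Zfp652. The level of Phospho1 is therefore uncertain. Zfp652 ran from 5.44 to 6.17 FPKM and Abi3 from 64.7 to 85.7 FPKM over the 6 libraries.

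Smpd3 encodes neutral sphingomyelinase 2, which splits sphingomyelin into ceramide and phosphocholine, the substrate of PHOSPHO1, and whose loss in mice leaves bone poorly mineralized. It was the second most abundant member. Controls held 60.2, 71.0 and 70.01 FPKM, and the libraries labelled mutant held 64.6, 64.2 and 82.8 FPKM. Libraries 1 and 2 labelled mutant lay inside the control range, and library 3 lay above it. The means of 67.1 ± 5.95 and 70.5 ± 10.6 FPKM (SD, n = 3 each) gave a log2 difference of 0.06, with a 95% interval from -0.21 to 0.34 (limma). The sign was not stable: the difference was -0.0546 without library 3 labelled mutant and -0.0099 without control 1. Smpd3 spans 106252548 to 106337988 of chromosome 8 on the minus strand.

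The pyrophosphate genes differed little between groups. Enpp1, the main source of extracellular pyrophosphate, held 10.4, 9.1 and 9.59 FPKM in controls, against 9.75, 9.73 and 12.9 FPKM under the mutant label. Again only library 3 lay outside the control range. The means were 9.70 ± 0.67 and 10.8 ± 1.80 FPKM (SD, n = 3 each), and the log2 difference of 0.13 had a 95% interval from -0.14 to 0.40 (limma). Without library 3 labelled mutant it was 0.0071. Enpp1 lies on the minus strand of chromosome 10 at 24637914 to 24712159, with no overlapping gene in GENCODE M21.

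Ank, now also called Ankh, was 3.90-fold more abundant than Enpp1 per length. Its levels were 42.1, 38.7 and 41.8 FPKM in controls, against 36.5, 38.0 and 42.7 FPKM under the mutant label. The groups overlapped, with libraries 1 and 2 labelled mutant below every control and library 3 above every control. The means were 40.9 ± 1.89 and 39.0 ± 3.25 FPKM (SD, n = 3 each). The log2 difference of -0.07 had a 95% interval from -0.24 to 0.11 (limma), the narrowest among the 7 genes. Ank spans 27466677 to 27594909 of chromosome 15 on the plus strand.

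The phosphate importers also overlapped between groups. Slc20a1, whose product also served as a retrovirus receptor in early work, held 10.9, 12.2 and 9.92 FPKM in controls, against 10.9, 11.8 and 11.2 FPKM under the mutant label. All 3 values under the mutant label lay within the control range. The means of 10.99 ± 1.12 and 11.3 ± 0.46 FPKM (SD, n = 3 each) gave a log2 difference of 0.04 with a 95% interval from -0.15 to 0.24 (limma). On the scale of FPKM + 1 this interval spans 0.900-fold to 1.18-fold. Slc20a2, the importer gene linked to brain calcification in people, held 28.3, 24.9 and 24.1 FPKM in controls, against 26.0, 24.9 and 22.0 FPKM under the mutant label. Its groups overlapped, and library 3 labelled mutant was the lowest of the 6. The means were 25.8 ± 2.23 and 24.3 ± 2.08 FPKM (SD, n = 3 each), and the log2 difference of -0.08 had a 95% interval from -0.29 to 0.12 (limma). Slc20a1 lies on chromosome 2 at 129198764 to 129211616 and Slc20a2 on chromosome 8 at 22476788 to 22569612, both on the plus strand.

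Ordered by mean FPKM over the 6 libraries, the 7 genes ran Alpl (246), Smpd3 (68.8), Ank (40.0), Slc20a2 (25.0), Phospho1 (19.8), Slc20a1 (11.1) and Enpp1 (10.2). Alpl stood 3.57-fold above Smpd3 and above 97.9% of tested genes, while Enpp1 stood above 49.8% of them. The ranges of neighbours in this order were separate except for Slc20a2 with Phospho1 and Slc20a1 with Enpp1, where the first gene was higher in 5 of 6 libraries. The order of these low neighbours is therefore not settled by 6 libraries.

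Because FPKM is per length, levels of 2 genes can be compared within a library, and such ratios do not change when a library is rescaled. They are given without a test, and those with Alpl share its values. Alpl to Ank, the pyrophosphate-cleaving enzyme against the exporter, was 4.41, 5.13 and 5.43 in controls and 7.53, 6.87 and 7.69 under the mutant label. Alpl to Enpp1, cleavage against production, was 17.8, 21.8 and 23.7 in controls and 28.2, 26.8 and 25.6 under the mutant label. Alpl to Phospho1 was 9.07, 10.9 and 10.2 against 14.5, 16.0 and 14.5. In all 3 ratios every library labelled mutant lay above every control. The same held for Alpl alone, so these are not 3 separate results. Groups did not overlap in 16.1% of all tested genes, and no such share was computed for ratios. The level of Phospho1 is uncertain, as stated above. Enpp1, Ank and Phospho1 were highest in library 3 labelled mutant. The ratio of the importers, Slc20a2 to Slc20a1, overlapped between groups, at 2.36 ± 0.28 and 2.15 ± 0.21 (SD, n = 3 each).

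**Figure D2:**
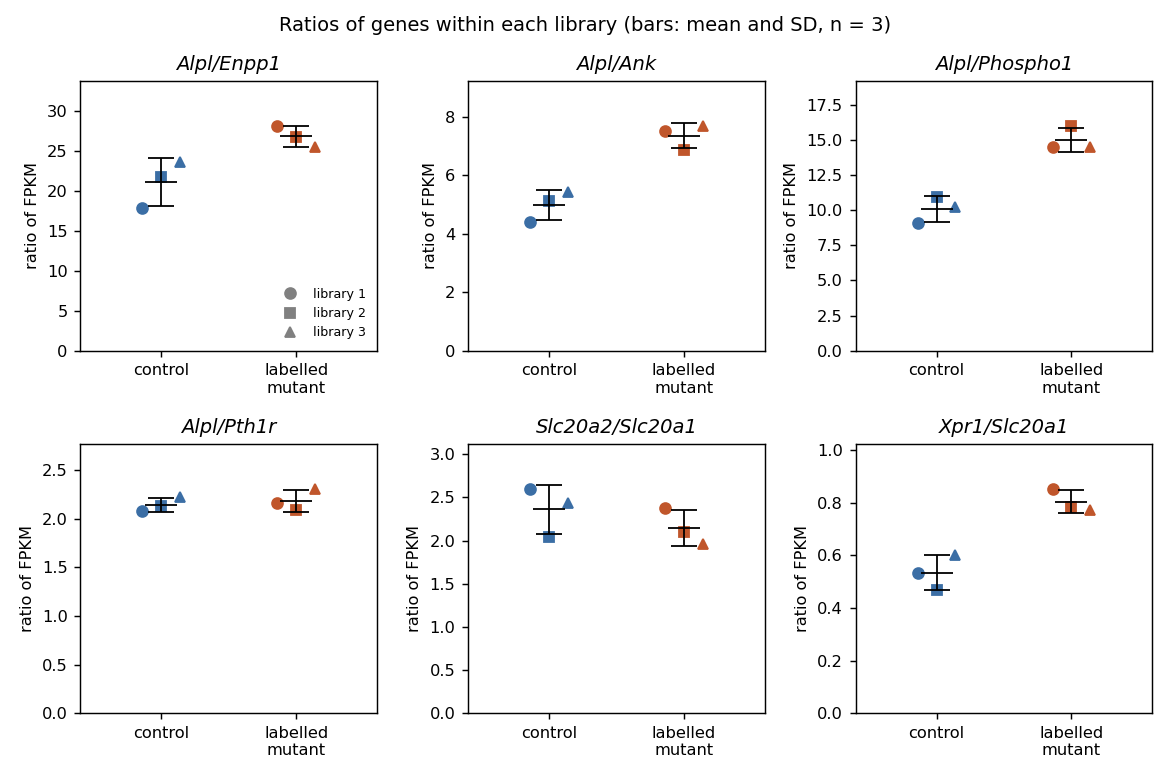
Ratio of FPKM of 2 genes within each library (vertical axes from 0), for controls and libraries labelled mutant, with the mean and SD (n = 3). Alpl to Enpp1, Ank or Phospho1 and Xpr1 to Slc20a1 do not overlap between groups, while Alpl to Pth1r and Slc20a2 to Slc20a1 do.

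Library 3 labelled mutant held the highest value of 5 of the 7 genes (Alpl, Phospho1, Enpp1, Ank and Smpd3), against 22.0% of all tested genes. This library also had the lowest relative depth (0.703 of control 1) and the most names at 0, at 7304 against 6736 to 6879 elsewhere. Of the 7 osteoblast genes listed 6 were also highest there, all but Alx4, as were 5 of the 9 tested genes of mineral-binding matrix proteins (not Mepe, Mgp, Bglap or Bglap2). Col1a1 reached 13131 FPKM, against 9475 and 9429 FPKM in libraries 1 and 2 labelled mutant and 9427 to 10866 FPKM in controls. Sp7, a transcription factor of osteoblasts, was 130 FPKM there and 96.5 to 112 FPKM in the other 5 libraries. The same library had the lowest summed level of 5 muscle genes, at 6751 FPKM against 8001 to 13072 FPKM elsewhere, and the lowest summed level of 4 red cell genes, at 2694 FPKM against 4840 to 11934 FPKM. The part of such tissue make-up, or of depth, in the members' values was not tested. Without that library, the log2 difference of Alpl was 0.40 (limma, adjusted p = 0.238). The groups of Alpl did not overlap with all 6 libraries in, so its direction without library 3 was given in advance.

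**Figure D3:**
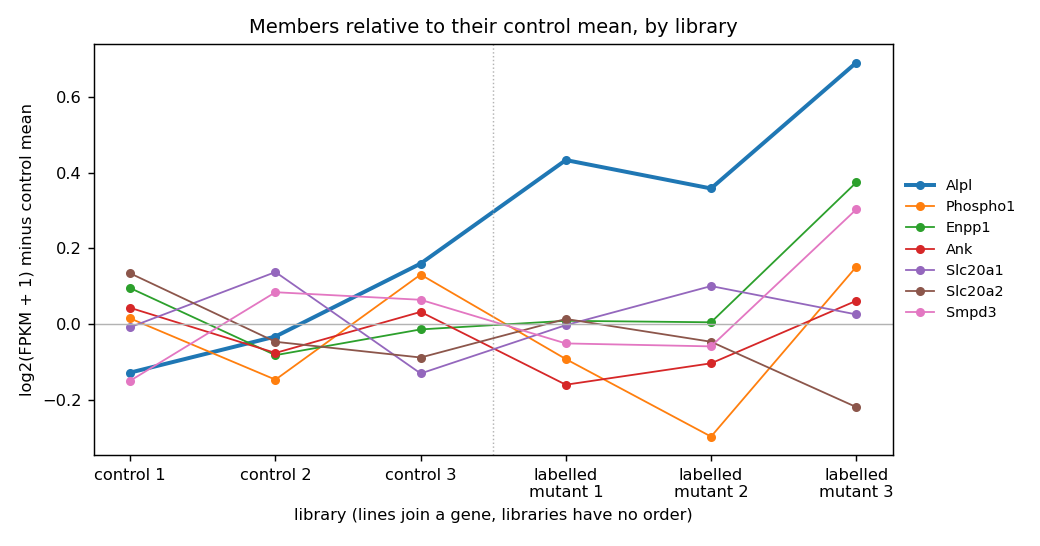
Log2(FPKM + 1) of each of the 7 genes minus its control mean (vertical axis) in the 6 libraries (horizontal axis), with a line joining the values of a gene. Alpl stands at 0.43, 0.36 and 0.69 in libraries 1 to 3 labelled mutant, and of the other genes only Enpp1 (0.37) and Smpd3 (0.30) pass 0.2 above 0, both in library 3.

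Set against single osteoblast genes, ratios chosen after their values were seen, Alpl was higher under the mutant label per Sp7 (1.998 ± 0.09 and 2.63 ± 0.11, SD, n = 3 each) and per Runx2, the osteoblast master regulator (6.86 ± 0.59 and 8.01 ± 0.23). It was lower per Ibsp, the bone sialoprotein gene, at 0.225 ± 0.0235 and 0.165 ± 0.0106 (SD, n = 3 each). Alpl per Col1a1 was also higher under the mutant label, at 0.0200 ± 0.00085 and 0.0272 ± 0.0020 (SD, n = 3 each). Groups did not overlap in any of these ratios. The groups of Alpl, Runx2 and Ibsp alone did not overlap either, so these are not separate results. Groups did not overlap in 16.1% of all tested genes, and no such share was computed for ratios. Alpl per Pth1r was 2.08, 2.13 and 2.23 in controls and 2.16, 2.09 and 2.31 under the mutant label, and these groups overlapped.

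Genes with the nearest profiles were found outside the gene lists by the root mean square difference between centred log2(FPKM + 1) values over 6 libraries. Antxr2, an anthrax toxin receptor gene, was nearest to Alpl, with a difference of 0.046, followed by Pth1r itself, with 0.0533. The profile of Alpl varied by 0.28 (root mean square) over the same libraries. Antxr2 held 15.2, 15.7 and 17.3 FPKM in controls, against 22.2, 20.6 and 25.0 FPKM under the mutant label. Nearest to Smpd3 were Kdelr2 (0.0162) and C1qtnf5 (0.0253), to Enpp1 Adamts6 (0.0256) and Tmem181a (0.0361), and to Phospho1 Zfp763 (0.0353) and Cntln (0.0407). Ank lay nearest to Tmem167 and Myh10 (both 0.0227), Slc20a1 to Hspa12b (0.0192) and C1qa (0.0241), and Slc20a2 to Igf2os (0.0277) and Rhoj (0.0289). With 6 libraries and 13180 genes, close profiles arise for any gene, and these names are a description only.

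Among 52 other mineralization genes in 4 lists, 42 had a mean of at least 1 FPKM, of which 2 rose and 0 fell (limma, Benjamini-Hochberg adjustment), against 0.524% and 0.0835% of all tested genes. At an unadjusted p under 0.05 (limma), 9 were higher and 5 lower, against 10.5% of all tested genes in either direction. Their median log2 difference over the 42 was 0.04, with 23 higher and 19 lower, and 50.5% of all tested genes were higher. The 2 that rose were Xpr1 and Ibsp.

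Xpr1, which encodes the phosphate exporter of animal cells, rose from 5.81, 5.70 and 5.97 FPKM in controls to 9.34, 9.26 and 8.64 FPKM under the mutant label. The 2 groups were tight and far apart. The ratio of means was 1.56 and the log2 change 0.56 ± 0.06 (SE; limma, Benjamini-Hochberg adjusted p = 0.0171). Leaving out any 1 library ended the call, with adjusted p between 0.0529 and 0.101, and so did the replicate number as a block (0.0965). Xpr1 per Slc20a1, a ratio chosen after its values were seen, was 0.535 ± 0.0659 in controls and 0.804 ± 0.0438 under the mutant label, and Xpr1 per Slc20a2 was 0.227 ± 0.0210 and 0.375 ± 0.0171 (SD, n = 3 each). All 7 osteoclast genes listed moved the same way as Xpr1, and none was at 0 in any library. The 5 neutrophil genes, 3 hypertrophic chondrocyte genes and 3 tested red cell genes listed also had log2 differences above 0. Of those, only Mmp13 passed. Below 0 were 6 of 7 cartilage matrix genes, 5 of 5 muscle genes and 5 of 6 neural genes. The neural genes were not lower in every library labelled mutant. Their summed level was 102 FPKM in library 2 labelled mutant and 33.1 and 19.2 FPKM in libraries 1 and 3, against 46.3 to 52.4 FPKM in controls. Ctsk, the cathepsin K gene, was 346 to 355 FPKM in controls, against 731 to 813 FPKM under the mutant label. The part of osteoclasts or of other cells in the value of Xpr1 was not tested.

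In the list of phosphate transport and regulation, 7 of 12 genes were tested, and 5 had higher and 2 lower values. At an unadjusted p under 0.05 (limma), 3 were higher and 0 lower, against 10.5% of all tested genes in either direction. Phex, the endopeptidase gene mutated in X-linked hypophosphataemia, had 7.15 ± 1.05 and 9.64 ± 1.25 FPKM, and Slc13a5, a citrate transporter gene of bone, 28.4 ± 3.45 and 36.8 ± 7.06 FPKM (SD, n = 3 each). Neither passed (limma, adjusted p = 0.295 and 0.453). The renal and intestinal phosphate carriers Slc34a1, Slc34a2 and Slc34a3 stayed at 0.419 FPKM or less in every library, and Fgf23, the phosphate-lowering hormone gene, at 0.0644 FPKM or less.

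Of the 17 other phosphatase and pyrophosphate genes, 13 were tested and none passed in limma. Of the 13, 3 had an unadjusted p under 0.05, against 10.5% of all tested genes. Those were Entpd1, which hydrolyses extracellular ATP (10.5 ± 0.88 and 13.7 ± 1.13 FPKM), Panx3, an ATP-releasing channel gene of bone and cartilage (48.2 ± 4.95 and 64.1 ± 12.2 FPKM), and Enpp2, the autotaxin gene (17.5 ± 3.04 and 13.3 ± 1.56 FPKM; SD, n = 3 each). The groups of Entpd1 and Panx3 did not overlap, as in 16.1% of all tested genes, and those of Enpp2 did. The intestinal and placental-type phosphatase genes Akp3 and Alppl2 were listed at 0 in all 6 libraries and Alpi at 0 in 5, so that Alpl was the 1 alkaline phosphatase gene of the 4 with a level above 0.0347 FPKM.

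The 13 genes of matrix vesicles and phospholipids were all tested, and none passed in limma. Only 1 had an unadjusted p under 0.05, against 10.5% of all tested genes. This was Smpd1, the acid sphingomyelinase gene, at 29.5 ± 1.66 and 26.5 ± 0.69 FPKM (SD, n = 3 each). Ano6, a phospholipid scramblase gene, and Slc44a1, a choline transporter gene, had ratios of 1.12 and 1.17. The annexin genes Anxa2, Anxa5 and Anxa6, whose products are abundant in matrix vesicles, had ratios of 1.01, 1.03 and 0.985.

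Of the 9 tested genes of mineral-binding matrix proteins, 5 were higher and 4 lower in mean. In limma 1 rose and 0 fell, against 0.524% and 0.0835% of all tested genes. At an unadjusted p under 0.05 (limma), 4 were higher and 3 lower, against 10.5% of all tested genes in either direction. The list was chosen with earlier results of these data known. Ibsp, whose acidic protein nucleates mineral, rose 1.93-fold, from 939, 831 and 954 FPKM to 1778, 1485 and 2004 FPKM (log2 change 0.94 ± 0.12 SE; limma, Benjamini-Hochberg adjusted p = 0.0306). The call held without library 2 labelled mutant (adjusted p = 0.028) and was lost without any other library (0.0597 to 0.128), with the replicate number as a block (0.0623) and with no filter on low values (0.0809). Spp1, the gene of osteopontin, which binds mineral and slows its growth, had 2305, 1986 and 2266 FPKM in controls, against 3203, 2962 and 3731 FPKM under the mutant label without passing (limma, adjusted p = 0.0993). Bglap2, an osteocalcin gene that shares reads with its near copy Bglap and is therefore uncertain, had 92.6, 89.0 and 149 FPKM in controls, against 27.0, 47.8 and 52.9 FPKM under the mutant label (adjusted p = 0.125). In this list 4 genes lay above and 2 below in every library labelled mutant against every control, as did 9.34% and 6.79% of all tested genes.

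**Figure D4:**
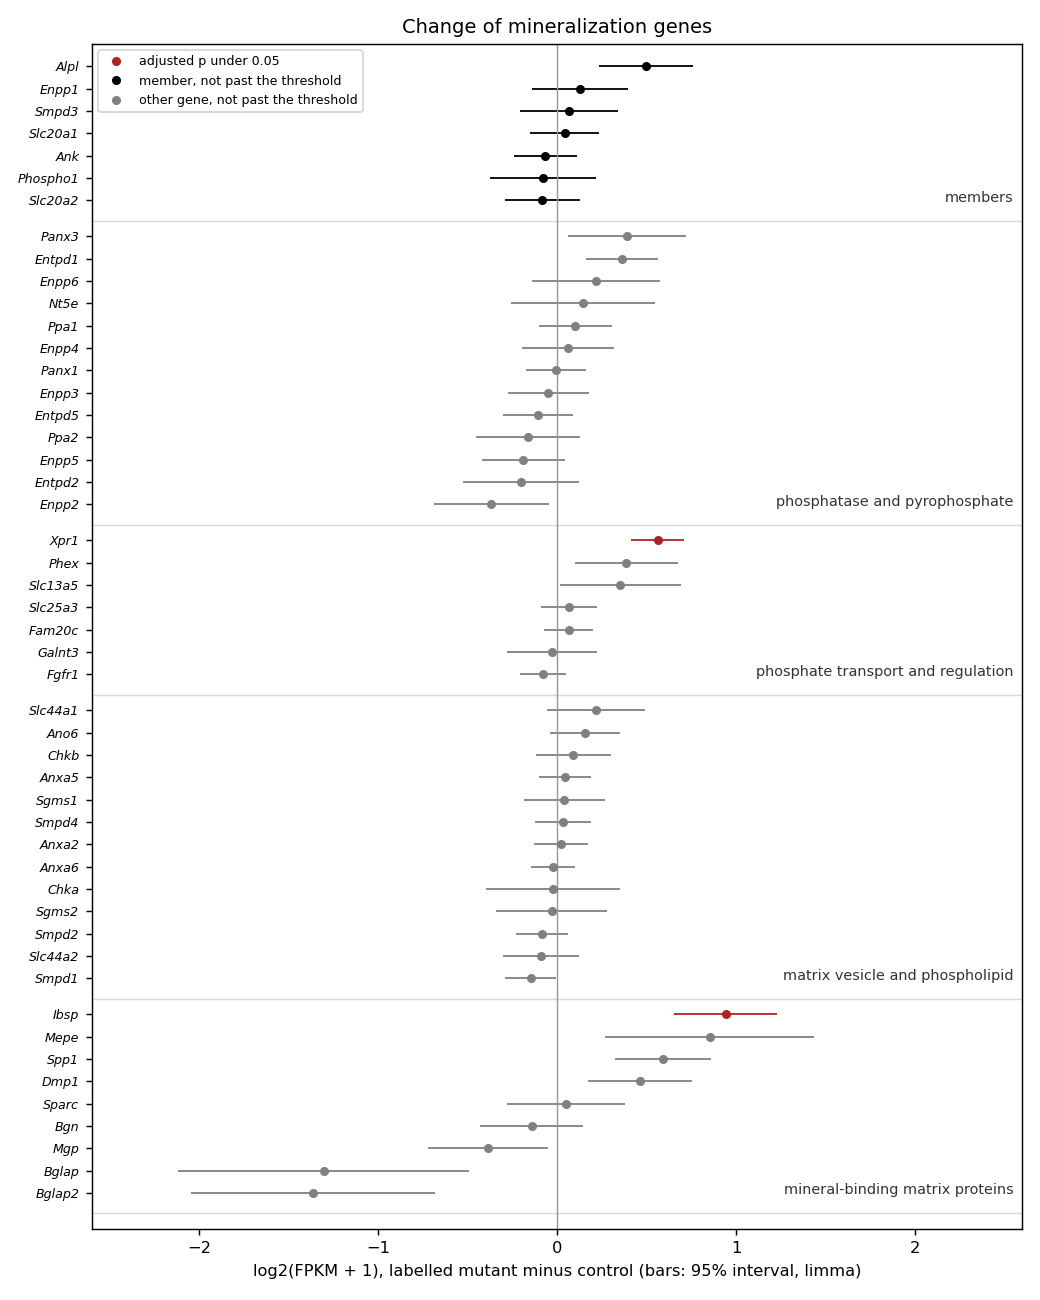
Log2(FPKM + 1) difference, labelled mutant minus control (horizontal axis), with its 95% interval from limma for the 7 members and the 42 tested genes of the other 4 lists (vertical axis, grouped by list). Only Xpr1 and Ibsp pass the threshold, and Alpl has the largest difference of the members at 0.49.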

How the data were processed

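Total RNA of newborn calvaria was sequenced after stranded mRNA library preparation, per the labels' protocols. The deposited values are FPKM, made by the authors with Cufflinks 2.2.1, TopHat2 2.0.13, SAMtools 0.1.19 and Bowtie2 2.2.3 on mm10, per the submitters' processing notes. No source used here gives the annotation, the options, the use of strand or the read totals. FPKM divides by length and library total, so abundant genes can move the values of others, and Cufflinks shares ambiguous fragments between overlapping genes by a model. FPKM was used as deposited. The test, for names whose mean reached 1 FPKM, was limma 3.58.1 under R 4.3.3 on log2(FPKM + 1), with eBayes and a trend, 1 term for group, two-sided. The procedure was tested on simulated data. Low values fell on single-fragment steps, read below 0.05 FPKM in both libraries of a pair, but gene lengths kept whole reads from being recovered, so no count test was run.

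Groups and replicate numbers come from the titles. The members and lists were chosen with earlier results of these data known. Beyond the members and Pth1r, most named genes were taken by rule. The rules took genes past the threshold, the 3 smallest p of each mineralization list and the 2 nearest profiles of each member. They also took the most abundant markers that a result turns on. Sp7, Runx2 and the genes that overlap a member or are listed near 0 were named after their values were seen. Comp, Ihh, Alx4, Oc90, Mepe, Mgp, Bglap and the annexin genes were also named outside the rules. Of 107 list entries, 1 matched no name. Promoter windows come from RefSeq (5 of 7 members matched, not Slc20a2 and Smpd3). The other 15 settings are in the closing section.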

Additional observations from a re-analysis of the deposited data

How the results depend on the processing

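Over the 15 other settings, 0 of 105 member values passed the threshold, and 100 kept their direction. Alpl stayed between 0.40 and 0.57 (adjusted p from 0.108 to 0.355, limma). The 5 changes of sign were Smpd3 with array weights (-0.0104), without control 1 (-0.0099) and without library 3 labelled mutant (-0.0546), Slc20a1 without control 3 (-0.0236) and Phospho1 without library 2 labelled mutant (0.0298). When a library was left out, Phospho1 ran from -0.194 to 0.0298, Slc20a1 from -0.0236 to 0.11, Smpd3 from -0.0546 to 0.126, Enpp1 from 0.0071 to 0.192, Ank from -0.131 to -0.0206 and Slc20a2 from -0.132 to -0.0162. The cause was not tested. The number of other mineralization genes that rose was 1 with no filter on low values, 0 with the replicate block and 0 to 1 when a library was left out, where Mepe alone passed without control 1 (adjusted p = 0.0337). With array weights 1 fell, Bglap2 (0.0382), Spp1 passed too (0.0411), and Pth1r passed at a log2 difference of 0.40 (adjusted p = 0.0458). Over all genes, 69 rises and 11 falls became 44 and 6 with no filter, 152 and 31 with array weights, 23 and 2 with the replicate block, and 15 to 34 and 1 to 12 when a library was left out. The labels state no pairing, so the replicate numbers were not used as pairs in the main fit. Over all tested genes, same-numbered libraries did not deviate together (correlations 0.0163, -0.0714 and 0.0152), and 0 of 6 libraries matched their own number best. With the replicate block, the SE of Alpl was 0.0684 against 0.111 in the main fit. That of Phospho1 was 0.0644 against 0.125, and neither gene passed. The groups of the Alpl ratios to Enpp1, Ank and Phospho1 did not overlap, so leaving out 1 library could not change their sign. The size could move: the log2 difference of Alpl to Enpp1 (mutant minus control) was 0.238 without control 1 and 0.443 without control 3. Absolute depth is unknown, so precision rests on the spread between 3 libraries a group.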
